A study of Danio rerio with 13 samples.

Results

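The heat shock protein and chaperonin genes are the genes whose only symbol in the array annotation starts with *hsp* or *dnaj*, or with *cct* and a digit, without *hspa5* and *hsp90b1*. They number 54 of the 8793 genes that the Affymetrix Zebrafish Genome Array names by a single symbol. The arrays measured RNA of GFP+ acute lymphoblastic leukemia (ALL) cells, which had been purified by flow sorting from 13 adult fish (heads left out), each fish giving a single array. *hMYC-2* ALL (6 arrays) and *hMYC-1* ALL (4 arrays) came from double-transgenic *hMYC;GFP* fish, in which the *rag2* promoter, active in immature lymphocytes, drives human MYC and the *lck* promoter drives GFP, and which were given no tamoxifen. The *hMYC-1* and *hMYC-2* groups were formed by the authors from a clustering of these same arrays. With *hlk* ALL as the reference, the 4 *hMYC* ALL nearest to it were named *hMYC-1*. A smaller difference of *hMYC-1* ALL from *hlk* ALL may therefore be built into the grouping. *hlk* ALL (3 arrays) came from another zebrafish line that develops T cell ALL and also carries *lck:eGFP*. All values are log2 levels, so a difference of 1 is a doubling, and each gene is shown by its brightest probe set.

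Molecular chaperones bind unfolded or partly folded proteins and help them reach their shape. HSP70 proteins hold short exposed stretches in a cycle of ATP binding, which J-domain proteins (HSP40, in classes A, B and C) start and nucleotide exchange factors such as HSP110 end. HSP90 finishes the folding of kinases and receptors, and the chaperonins, HSP60 with its lid HSP10 in mitochondria and the CCT ring in the cytosol, enclose a protein while it folds. Some members are made in every growing cell, and others are made after heat or protein damage through the heat shock factor Hsf1.

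The deposited log2 levels ran between 1.97 and 14.67. The 17 tag control probe sets, which match no zebrafish RNA, reached at most 5.68, and levels at or under that value are called within background. Where a group was within background on all its arrays, "at least" gives the other group's mean minus 5.68. It is no confidence limit, and the adjusted p beside it is that of the full difference. Of the 54 members, 43 were above background on at least 1 array and 11 on none. The gap between the 3′ and 5′ *gapdh* probe sets, a measure of RNA length, was 4.69 in *hlk* replicate 1 and between 1.09 and 2.49 on the other 12 arrays. Values without *hlk* replicate 1 are therefore given for *hspd1*, *hspe1*, *cct2* and *cct6a*. This array moved other members too. Without it, *dnaja2b* differed by -1.47, *dnajc19* by 1.37 and *dnajc3a* by 1.57 in *hMYC-2* ALL against *hlk* ALL, each farther from 0 than with it. In the same comparison *hspd1* (1.16), *cct2* (0.83) and *cct6a* (0.29) differed less without it. It also held the lowest *hlk* levels of *dnajc1* (7.31) and *dnajc7* (8.38), so the array could widen a difference as well as narrow it. All 7 measured B lineage genes were higher in *hMYC-2* ALL and in *hMYC-1* ALL than in *hlk* ALL, and their mean level was between 8.88 and 9.18 in *hMYC-2* ALL, between 7.82 and 9.21 in *hMYC-1* ALL and between 4.32 and 4.65 in *hlk* ALL. The mean of 6 T lineage genes was between 5.13 and 5.80 in *hMYC-2* ALL, between 5.82 and 6.68 in *hMYC-1* ALL and between 6.76 and 7.77 in *hlk* ALL. Of these, *runx3*, *rag1* and *gata3* were lower in *hMYC-2* ALL and *runx3* and *gata3* in *hMYC-1* ALL, *tox* was higher in *hMYC-1* ALL (0.56, adjusted p = 0.0449), and *cd28* and *rag2* passed in neither. The authors found *rag2* at similar levels in B and T lineage ALL of *hMYC* fish, so it does not mark the T lineage alone. Of the 6 genes, 1 was within background on all arrays. *hlk* replicate 1 also had the highest means of skin, hepatocyte and exocrine pancreas markers (5.49, 4.72 and 5.24, against at most 4.80, 4.38 and 4.63 on the other arrays). Muscle, fibroblast and endothelium, and lens markers were highest there too (5.18, 4.11 and 4.88), and erythroid, macrophage and thrombocyte markers were not. Neutrophil markers averaged at most 4.64 on the *hMYC* arrays and 4.74 to 5.11 on the *hlk* arrays. All these means are under the background limit. Within background on all arrays were 6 of 10 skin, 5 of 8 hepatocyte, 5 of 9 exocrine pancreas and intestine, and 3 of 6 neutrophil genes. The part of such cells in the results was not tested. The transgene, the fish line and the share of B and T lineage cells differ together between the *hMYC* groups and *hlk* ALL and cannot be told apart, nor can fewer cells of a type and less RNA per cell.

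In *hMYC-2* ALL against *hlk* ALL, 14 of the 54 members were higher (25.9%) at an adjusted p under 0.05, against 11% of all 15502 probe sets, and 4 were lower (7.41%), against 13.7% of all probe sets. In *hMYC-1* ALL against *hlk* ALL, 11 members were higher (20.4%), against 9.13% of all probe sets, and 2 were lower (3.7%), against 9.63%. Both comparisons use the same 3 *hlk* arrays. The members and all probe sets differ in selection and level. Each member is the brightest probe set of a named gene, and 43 of the 54 were above background on at least 1 array. The 15502 probe sets were not filtered, and 4572 of them carry no symbol. The median level of each array, 4.98 to 5.1, was within background. This limits every comparison with all probe sets. Whether the shares differ from those of named genes of similar level was not tested. Without *dnajb6a*, whose probe sets disagree in direction, 13 of 53 members were higher in *hMYC-2* ALL (24.5%) and 10 of 53 in *hMYC-1* ALL (18.9%). The median difference over the members was 0.12 in *hMYC-2* ALL and 0.07 in *hMYC-1* ALL, where the medians over all probe sets were -0.07 and -0.03. The groups did not overlap for 16 members in *hMYC-2* ALL against *hlk* ALL (29.6%, against 23.2% of all probe sets). In *hMYC-1* ALL against *hlk* ALL they did not overlap for 15 (27.8%, against 23.2%). Among these, *dnajc24*, *hspa4l* and *hspb6* in the first comparison and *dnajc30b* and *hspa4l* in the second were within background in both groups. With the arrays scaled to equal housekeeping genes, 13 members were higher and 2 lower in *hMYC-2* ALL (11.5% and 5.86% of all probe sets), and 12 were higher and 1 lower in *hMYC-1* ALL (12.1% and 4.05%). The shrinkage t test that the methods name was rewritten here from its published formulas, with a local false discovery rate from separate code. Its counts may differ from those of the authors' software. At a local false discovery rate under 0.05 the rewritten test called far fewer members. It called *dnajb11*, *dnajc3a* and *hspbp1* higher and *hspa8* lower in *hMYC-2* ALL (3 and 1, against 3.57% and 2.63% of all probe sets), and *cct2*, *dnajb11*, *dnajc11a*, *dnajc19* and *hspbp1* higher and *dnaja2b* and *hspa8* lower in *hMYC-1* ALL (5 and 2, against 4.4% and 3.24%).

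**Figure D1:**
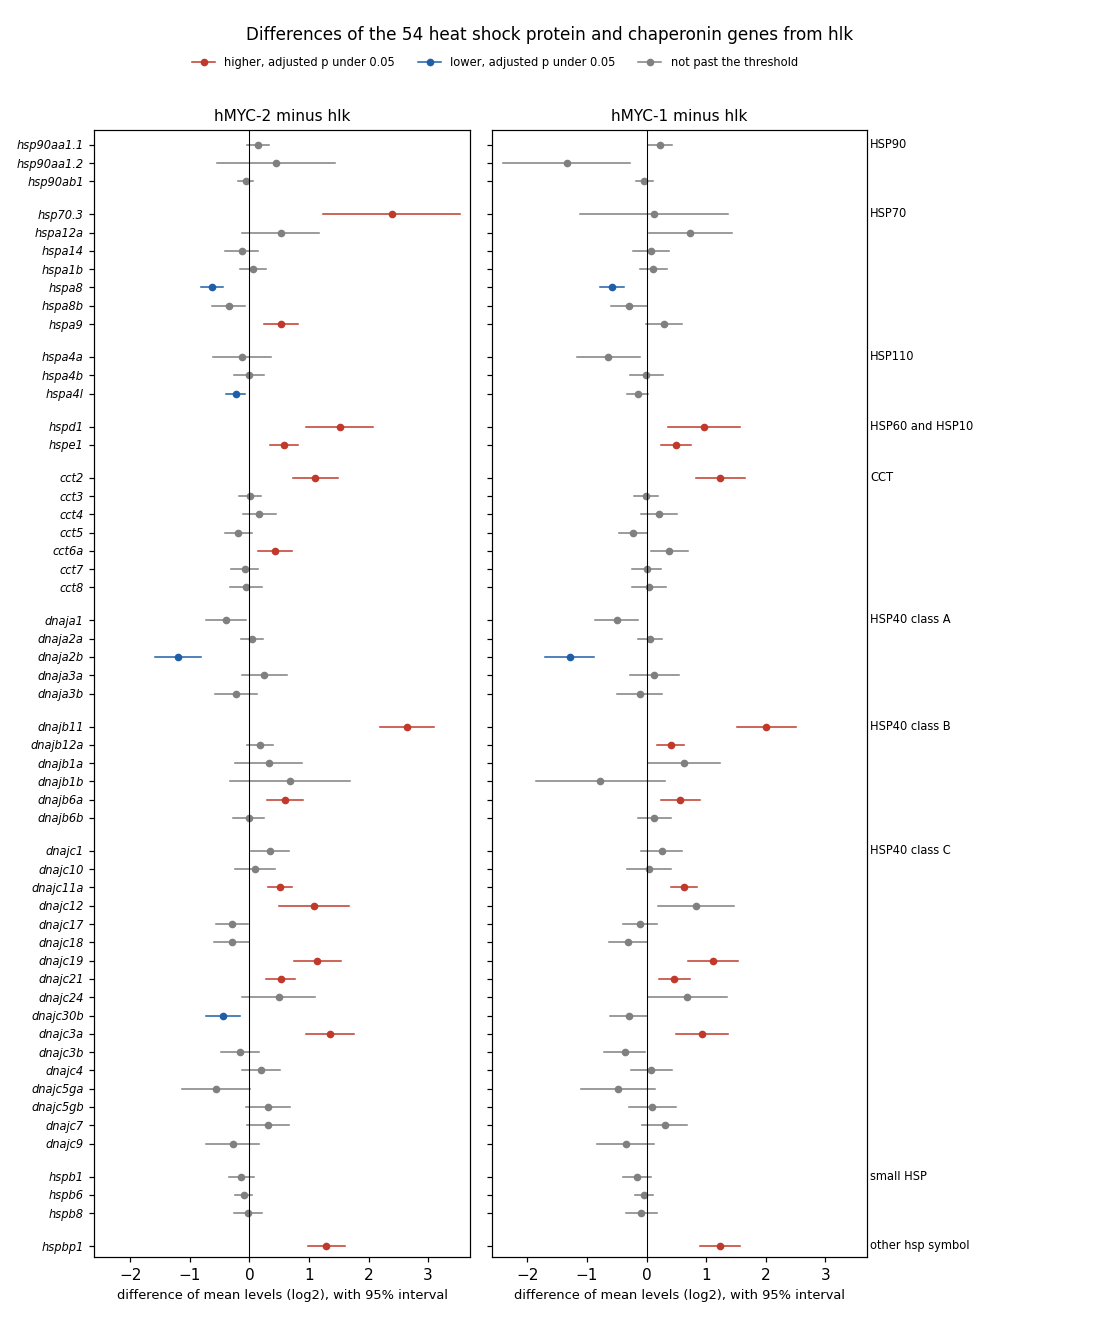
Difference of mean log2 levels from *hlk* ALL for the 54 members in rows by family, with *hMYC-2* minus *hlk* on the left and *hMYC-1* minus *hlk* on the right; points are limma estimates and lines 95% intervals. Red marks the 14 and 11 members called higher, blue the 4 and 2 called lower, and the point farthest to the right in both panels is *dnajb11*.

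Mitochondrial chaperones were among the higher members. Of 8 members that work there, 5 were higher and 1 lower in *hMYC-2* ALL against *hlk* ALL, and 4 were higher in *hMYC-1* ALL against *hlk* ALL. Of all probe sets, 11% were higher and 13.7% lower in *hMYC-2* ALL, and 9.13% were higher in *hMYC-1* ALL. These 8 members were grouped after their values had been seen, so the counts are a description. *hspd1* encodes HSP60, the chaperonin that folds proteins in the mitochondrial matrix. Its level was lowest at 10.41, with a median of 10.73 and a highest value of 11.15, in *hMYC-2* ALL, 10.36, 10.57, 9.80 and 10.06 in *hMYC-1* ALL, and 8.53, 9.31 and 9.88 in *hlk* ALL. Every *hMYC-2* array was above every *hlk* array, whereas *hMYC-1* replicate 3 lay just below the highest *hlk* array. *hspd1* was higher by 1.51 ± 0.26 (SE, 2.86-fold, adjusted p = 8.80e-04) in *hMYC-2* ALL and by 0.96 ± 0.28 (1.94-fold, adjusted p = 0.0296) in *hMYC-1* ALL. *hlk* replicate 1 had the lowest *hspd1* level, and without it the differences were 1.16 (adjusted p = 0.00266) in *hMYC-2* ALL and 0.60 (adjusted p = 0.108) in *hMYC-1* ALL. The *hMYC-1* call was also lost without *hMYC-1* replicate 1 (0.90, adjusted p = 0.069), *hMYC-1* replicate 2 (0.83, adjusted p = 0.078) or *hlk* replicate 2 (0.99, adjusted p = 0.0573).

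*hspe1* encodes HSP10, the lid that closes the HSP60 chamber, and lies next to *hspd1* in the RefSeq gene table (GRCz12tu) with no other protein-coding gene between them. It reached 10.07 to 10.51 with a median of 10.26 in *hMYC-2* ALL, 10.08, 10.20, 10.28 and 10.06 in *hMYC-1* ALL, and 9.83, 9.50 and 9.67 in *hlk* ALL. All 10 *hMYC* arrays were above all *hlk* arrays. The differences were 0.58 ± 0.11 (adjusted p = 0.00178) in *hMYC-2* ALL and 0.49 ± 0.12 (adjusted p = 0.0107) in *hMYC-1* ALL. Without *hlk* replicate 1 they were 0.66 (adjusted p = 0.00165) and 0.57 (adjusted p = 0.00718). *hspe1* was highest among *hlk* arrays in replicate 1, where *hspd1* was lowest.

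Of mitochondrial HSP70 and its 3 J-domain partners among the members, *dnajc19* passed in both comparisons and the HSP70 gene itself in *hMYC-2* ALL alone. *hspa9* encodes mortalin, the HSP70 that pulls proteins into the matrix, and had levels of 10.19 to 10.65 (median 10.3) in *hMYC-2* ALL, 10.11, 10.38, 10.12 and 9.85 in *hMYC-1* ALL, and 9.93, 9.60 and 9.95 in *hlk* ALL. It was higher by 0.52 ± 0.13 (adjusted p = 0.0111) in *hMYC-2* ALL, which became 0.41 (adjusted p = 0.0588) without *hlk* replicate 2, and the difference in *hMYC-1* ALL was 0.29 ± 0.14 (adjusted p = 0.194). A second, dimmer *hspa9* probe set gave differences of 1.12 (adjusted p = 0.183) in *hMYC-2* ALL and 0.85 (adjusted p = 0.401) in *hMYC-1* ALL. *dnajc19* encodes the J-domain protein that stimulates this HSP70 at the inner membrane translocase. Its level was 6.60 to 7.13 with a median of 6.92 in *hMYC-2* ALL, 6.57, 6.90, 7.08 and 6.93 in *hMYC-1* ALL, and 6.22, 5.64 and 5.40 in *hlk* ALL. No *hMYC* array overlapped an *hlk* array, and the *hlk* arrays of replicates 2 and 3 were within background. The differences were 1.14 ± 0.18 (2.20-fold, adjusted p = 5.27e-04) in *hMYC-2* ALL and 1.12 ± 0.19 (2.17-fold, adjusted p = 0.00132) in *hMYC-1* ALL. *dnajc11a*, whose human counterpart sits at the mitochondrial outer membrane and binds the complex that shapes the cristae, had 6.87 to 7.30 (median 7.01) in *hMYC-2* ALL, 7.21, 7.21, 7.14 and 7.05 in *hMYC-1* ALL, and 6.64, 6.40 and 6.53 in *hlk* ALL. It was higher by 0.51 ± 0.09 (adjusted p = 0.00168) in *hMYC-2* ALL and by 0.63 ± 0.10 (adjusted p = 8.10e-04) in *hMYC-1* ALL, with no overlap. *dnaja3a*, a J-domain partner of matrix HSP70, differed by 0.25 ± 0.17 (adjusted p = 0.325) in *hMYC-2* ALL and by 0.13 ± 0.19 (adjusted p = 0.709) in *hMYC-1* ALL. Its paralog *dnaja3b* differed by -0.22 ± 0.16 (adjusted p = 0.356) in *hMYC-2* ALL and by -0.12 ± 0.18 (adjusted p = 0.705) in *hMYC-1* ALL. *dnajc30b* was called lower in *hMYC-2* ALL, but its levels were within background on all 13 arrays, and with the replicate number as a block its adjusted p was 0.2.

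The J-domain proteins of the endoplasmic reticulum held the difference that was largest among the 54 members in both comparisons with *hlk* ALL. Of 5 members placed in that compartment here, grouped after their values had been seen, 2 were higher in each comparison. The group is *dnajb11*, *dnajc3a*, *dnajc3b*, *dnajc1* and *dnajc10*. It leaves out membrane-anchored *dnajb12a*, called higher in *hMYC-1* ALL alone, and *dnajc18*, which passed in neither comparison, so the count depends on this choice. The share of all probe sets called higher was 11% in *hMYC-2* ALL and 9.13% in *hMYC-1* ALL. *dnajb11* encodes ERdj3, a J-domain partner of the HSP70 of the endoplasmic reticulum that binds newly made secreted proteins, among them immunoglobulin chains. It had levels of 9.15 to 10.35 in *hMYC-2* ALL, 9.35, 9.19, 8.93 and 9.04 in *hMYC-1* ALL, and 7.14, 7.01 and 7.21 in *hlk* ALL. The lowest *hMYC* array was far above the highest *hlk* array. *dnajb11* was higher by 2.64 ± 0.21 (6.25-fold, adjusted p = 1.72e-06) in *hMYC-2* ALL and by 2.01 ± 0.23 (4.02-fold, adjusted p = 4.69e-05) in *hMYC-1* ALL. Between the *hMYC* groups it differed by 0.64 ± 0.19 (95% interval 0.22 to 1.05, adjusted p = 0.221), with 5 of 6 *hMYC-2* arrays above all *hMYC-1* arrays.

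*dnajc3a* encodes P58IPK, a J-domain protein of the endoplasmic reticulum that is made more when folding there is strained. Its level was 6.29 to 7.02 in *hMYC-2* ALL, 5.98, 6.25, 6.20 and 6.17 in *hMYC-1* ALL, and 5.66, 5.29 and 4.72 in *hlk* ALL. All *hlk* arrays were within background and all *hMYC* arrays above it. Set against the background limit, *dnajc3a* was at least 0.89 (log2) higher in *hMYC-2* ALL (adjusted p = 1.81e-04) and at least 0.47 higher in *hMYC-1* ALL (adjusted p = 0.00586). It is also a member for which the *hMYC-2* arrays did not overlap the *hMYC-1* arrays, with a difference of 0.42 ± 0.17 (adjusted p = 0.376). Its paralog *dnajc3b* stayed near background, with means of 5.49 ± 0.26 in *hMYC-2* ALL, 5.28 ± 0.11 in *hMYC-1* ALL and 5.65 ± 0.22 in *hlk* ALL (SD, n = 6, 4 and 3). *dnajc1* (ERdj1) differed by 0.35 ± 0.15 (adjusted p = 0.11) in *hMYC-2* ALL and 0.25 ± 0.16 (adjusted p = 0.332) in *hMYC-1* ALL, and *dnajc10* (ERdj5, which also breaks disulfide bonds) by 0.09 ± 0.16 (adjusted p = 0.714) and 0.04 ± 0.17 (adjusted p = 0.922). The rule leaves out the main HSP70 of this compartment, the partner of these J-domain proteins, and its main HSP90. The HSP70 gene *hspa5* differed by 1.16 ± 0.28 in *hMYC-2* ALL (adjusted p = 0.00926) and by 0.05 ± 0.30 in *hMYC-1* ALL (adjusted p = 0.936). The HSP90 gene *hsp90b1* differed by 1.84 ± 0.32 in *hMYC-2* ALL (adjusted p = 0.00115) and by 1.32 ± 0.35 in *hMYC-1* ALL (adjusted p = 0.0186).

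**Figure D2:**
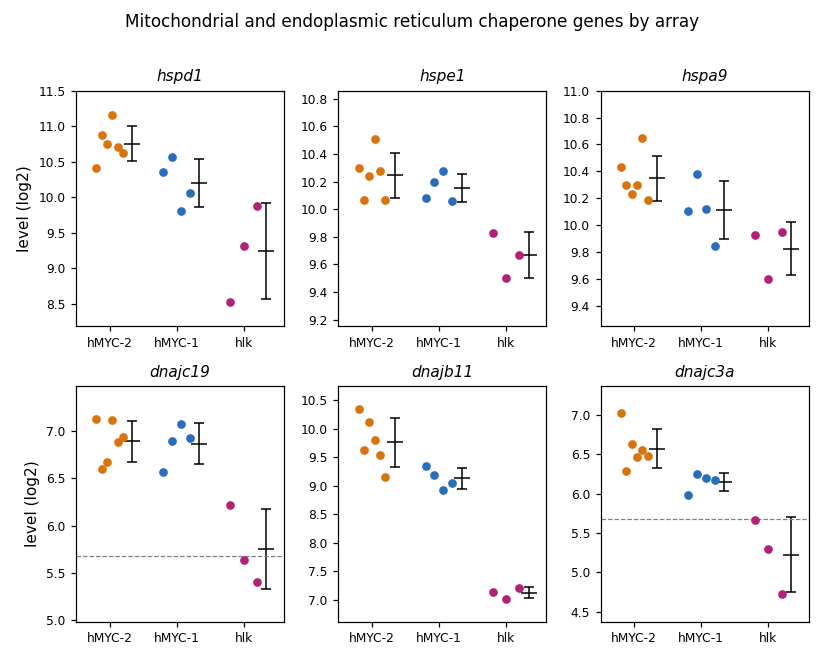
Log2 level on each array for 4 mitochondrial genes (*hspd1*, *hspe1*, *hspa9*, *dnajc19*) and 2 genes of the endoplasmic reticulum (*dnajb11*, *dnajc3a*) in *hMYC-2*, *hMYC-1* and *hlk* ALL; each panel has its own axis, points are arrays, the black mark is the group mean ± SD and the dashed line is the background limit of 5.68. *dnajb11* sits at 8.93 or higher on all *hMYC* arrays and at 7.21 or lower in *hlk* ALL, and the *hspd1* arrays of *hMYC-1* and *hlk* ALL overlap.

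The CCT ring is built from different subunits in fixed number and folds actin and tubulin. Its genes were bright in all groups. Against *hlk* ALL, 2 of the 7 members were higher in *hMYC-2* ALL (11% of all probe sets) and 1 of 7 in *hMYC-1* ALL (9.13%). *cct2* had levels of 10.89 to 11.34 (median 11.26) in *hMYC-2* ALL, 11.35, 11.45, 11.26 and 11.27 in *hMYC-1* ALL, and 9.54, 10.55 and 10.21 in *hlk* ALL. All *hMYC* arrays were above all *hlk* arrays, and the lowest was *hlk* replicate 1. *cct2* was higher by 1.11 ± 0.18 (2.16-fold, adjusted p = 5.21e-04) in *hMYC-2* ALL and by 1.23 ± 0.19 (2.35-fold, adjusted p = 5.35e-04) in *hMYC-1* ALL. Without *hlk* replicate 1 the differences were 0.83 (adjusted p = 5.78e-04) and 0.95 (adjusted p = 3.71e-04). A second *cct2* probe set lay near background in all groups and did not differ beyond its spread (-0.04 in *hMYC-2* ALL and 0.04 in *hMYC-1* ALL).

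*cct6a* was called in *hMYC-2* ALL alone. Its level was 11.90 to 12.21 in *hMYC-2* ALL, 12.14, 12.12, 11.97 and 11.85 in *hMYC-1* ALL, and 11.35, 12.01 and 11.56 in *hlk* ALL, so *hlk* replicate 2 overlapped both *hMYC* groups. The difference was 0.43 ± 0.13 (adjusted p = 0.0327) in *hMYC-2* ALL, where the replicate block gave 0.38 (adjusted p = 0.117), and 0.38 ± 0.14 (adjusted p = 0.0923) in *hMYC-1* ALL. The *hMYC-2* call was lost without *hlk* replicate 1 (0.29, adjusted p = 0.158), without *hlk* replicate 3 (0.39, adjusted p = 0.0978), and without *hMYC-2* replicate 2, 4, 5 or 6 (0.40 to 0.43, adjusted p = 0.0525 to 0.0611). The other 5 subunits stayed within 0.23 of *hlk* ALL in both comparisons. For *cct3* the difference was 0.01 (95% interval -0.17 to 0.20) in *hMYC-2* ALL and -0.01 (-0.20 to 0.19) in *hMYC-1* ALL. For *cct7* it was -0.08 (-0.30 to 0.15) and 0.00 (-0.24 to 0.24), and for *cct8* -0.05 (-0.32 to 0.22) and 0.04 (-0.25 to 0.33). *cct4* ran higher, by 0.17 (-0.11 to 0.45) and 0.21 (-0.10 to 0.51), and *cct5* lower, by -0.18 (-0.41 to 0.04) and -0.23 (-0.47 to 0.01), without passing the test. *hlk* replicate 1 had the lowest *hlk* level of *cct3*, *cct4*, *cct7* and *cct8* (10.94, 11.35, 11.08 and 11.13), so these differences depend on that array too. On *hlk* replicates 2 and 3, *cct4* was 11.94 and 11.58. There *cct7* was 11.57 and 11.45, above all *hMYC-2* arrays (11.24 to 11.33). *tcp1*, the remaining subunit of the ring, is named outside the rule and differed by -0.15 (adjusted p = 0.119) in *hMYC-2* ALL and -0.14 (adjusted p = 0.198) in *hMYC-1* ALL.

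**Figure D3:**
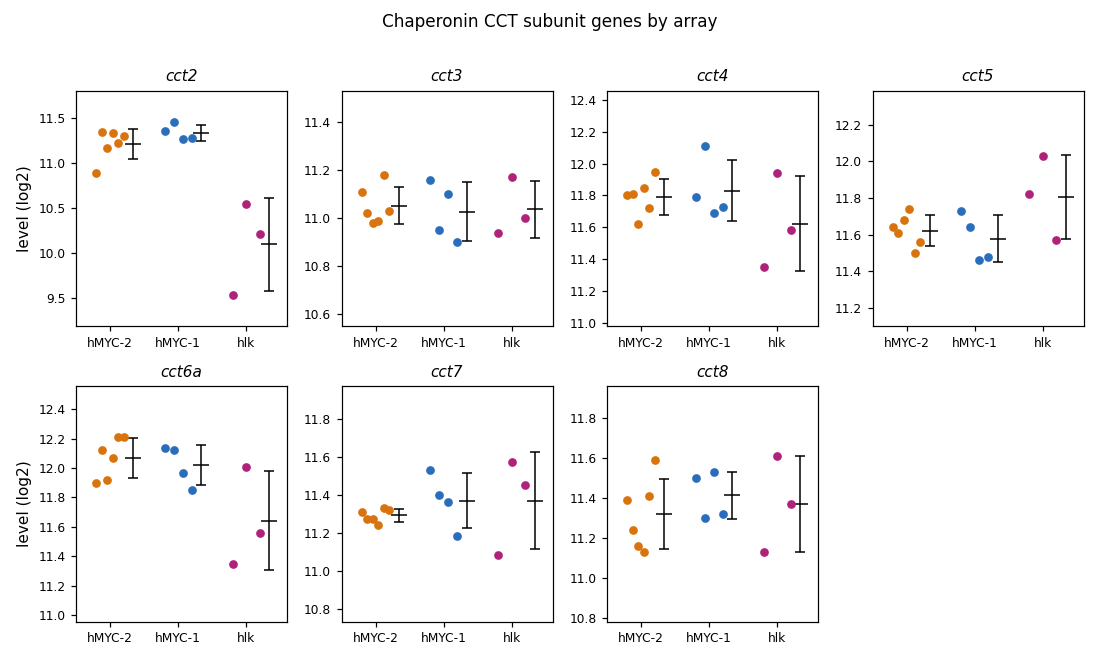
Log2 level on each array for the 7 CCT subunit genes in *hMYC-2*, *hMYC-1* and *hlk* ALL; each panel has its own axis, points are arrays and the black mark is the group mean ± SD. The *cct2* panel shows the *hlk* arrays (9.54 to 10.55) apart from all *hMYC* arrays (10.89 to 11.45), and in the other panels the groups overlap.

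In the cytosol, the main constitutive HSP70 was lower in both *hMYC* groups and the main HSP90 did not pass the test. *hspa8* encodes HSC70, the HSP70 that cells make without stress. It had levels of 12.63 to 12.94 (median 12.76) in *hMYC-2* ALL, 12.90, 12.71, 12.97 and 12.75 in *hMYC-1* ALL, and 13.41, 13.39 and 13.45 in *hlk* ALL. The *hlk* arrays lay within 0.1 of each other and above every *hMYC* array. *hspa8* fell by 0.63 ± 0.08 (0.645-fold, adjusted p = 1.33e-04) in *hMYC-2* ALL and by 0.58 ± 0.09 (0.667-fold, adjusted p = 5.63e-04) in *hMYC-1* ALL. *hsp90ab1*, the constitutive HSP90, had 13.34 to 13.42 in *hMYC-2* ALL, 13.46, 13.36, 13.42 and 13.45 in *hMYC-1* ALL, and 13.42, 13.55 and 13.42 in *hlk* ALL. The groups overlapped, with differences of -0.06 (95% interval -0.19 to 0.07) in *hMYC-2* ALL and -0.04 (-0.18 to 0.10) in *hMYC-1* ALL.

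*dnaja2b*, a class A J-domain partner of cytosolic HSP70, showed the largest fall among the members past the threshold. Its level was 8.92 to 9.35 in *hMYC-2* ALL, 9.18, 9.08, 9.16 and 9.01 in *hMYC-1* ALL, and 9.85, 10.47 and 10.88 in *hlk* ALL, with no overlap. It fell to 0.436-fold of *hlk* ALL in *hMYC-2* ALL (95% interval of the log2 difference -1.58 to -0.82, adjusted p = 2.93e-04) and to 0.408-fold in *hMYC-1* ALL (-1.70 to -0.88, adjusted p = 3.67e-04), and a second probe set fell by 0.86 (adjusted p = 0.0282) in *hMYC-2* ALL and by 0.91 (adjusted p = 0.0385) in *hMYC-1* ALL. The paralog *dnaja2a* had 9.94 to 10.20 in *hMYC-2* ALL, 10.24, 10.12, 10.00 and 10.10 in *hMYC-1* ALL, and 10.05, 10.00 and 10.14 in *hlk* ALL. Its differences were 0.05 (95% interval -0.13 to 0.23) in *hMYC-2* ALL and 0.05 (-0.15 to 0.25) in *hMYC-1* ALL. Whether the paralogs differ in their response was not tested. The probe sets of *hspa8* and *dnaja2b* can match more than a single transcript, by their array names.

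Of the exchange factors that release a client from HSP70, *hspbp1* (HSPBP1) had 6.59 to 6.88 in *hMYC-2* ALL, 6.34, 6.67, 6.75 and 7.05 in *hMYC-1* ALL, and 5.67, 5.21 and 5.53 in *hlk* ALL. All *hlk* arrays were within background and all *hMYC* arrays above it. By this probe set the gene was at least 1.08 higher in *hMYC-2* ALL (adjusted p = 2.84e-05) and at least 1.02 higher in *hMYC-1* ALL (adjusted p = 1.05e-04). A second probe set, which averaged 5.85 in *hlk* ALL, gave the smaller differences of 0.70 (adjusted p = 0.00134) in *hMYC-2* ALL and 0.60 (adjusted p = 0.00763) in *hMYC-1* ALL. The HSP110 gene *hspa4b* had 8.98 to 9.24 in *hMYC-2* ALL, 9.19, 9.07, 9.03 and 9.13 in *hMYC-1* ALL, and 8.74, 9.23 and 9.37 in *hlk* ALL, with differences of -0.01 (95% interval -0.26 to 0.25) and -0.01 (-0.28 to 0.27). The other HSP110 gene above background, *hspa4a*, averaged 7.48 ± 0.27 in *hMYC-2* ALL, 6.95 ± 0.35 in *hMYC-1* ALL and 7.60 ± 0.49 in *hlk* ALL (SD, n = 6, 4 and 3). It did not pass the threshold on adjusted p in any comparison. Its unadjusted limma p was 0.0205 in *hMYC-1* ALL against *hlk* ALL and 0.0245 between the *hMYC* groups.

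Among the other J-domain genes of classes B and C, *dnajc21* and *dnajc12* were higher in *hMYC-2* ALL, and *dnajc21* and *dnajb12a* in *hMYC-1* ALL. The brightest probe set of *dnajb6a*, whose human counterpart keeps proteins from aggregating, had 6.92 to 7.41 in *hMYC-2* ALL, 7.03, 7.23, 7.18 and 7.20 in *hMYC-1* ALL, and 6.96, 6.31 and 6.51 in *hlk* ALL, and was higher by 0.60 ± 0.14 (adjusted p = 0.00684) and 0.57 ± 0.15 (adjusted p = 0.0189). Its second probe set went the other way, by -0.33 (adjusted p = 0.191) in *hMYC-2* ALL and -0.95 (adjusted p = 0.00336) in *hMYC-1* ALL, so no direction can be given for this gene. *dnajc21*, whose human counterpart acts in the maturation of the large ribosomal subunit, had 7.34 to 7.87 in *hMYC-2* ALL, 7.59, 7.69, 7.58 and 7.63 in *hMYC-1* ALL, and 7.09, 7.04 and 7.35 in *hlk* ALL. It was higher by 0.53 ± 0.11 (adjusted p = 0.00393) in *hMYC-2* ALL and 0.46 ± 0.12 (adjusted p = 0.0163) in *hMYC-1* ALL, with *hMYC-2* replicate 6 just below the highest *hlk* array. The *hMYC-1* value became 0.40 (adjusted p = 0.062) without *hlk* replicate 2. *dnajc12*, whose human counterpart works with HSC70 on the enzymes that hydroxylate aromatic amino acids, had 5.72 to 6.73 in *hMYC-2* ALL, 5.37, 6.30, 6.34 and 6.17 in *hMYC-1* ALL, and 5.68, 4.87 and 5.09 in *hlk* ALL, all within background. It was at least 0.61 higher in *hMYC-2* ALL (adjusted p = 0.0112), a call lost under the replicate block (adjusted p = 0.0835) and without *hlk* replicate 2 (adjusted p = 0.0551). *dnajb12a*, a membrane-anchored J-domain gene, was called in *hMYC-1* ALL alone, at 0.40 ± 0.11 (adjusted p = 0.0183) against 0.18 ± 0.10 (adjusted p = 0.218) in *hMYC-2* ALL. That call was lost without *hMYC-1* replicate 3 or 4 or *hlk* replicate 2 or 3 (0.33 to 0.39, adjusted p = 0.0506 to 0.0752), and the *dnajb6a* call in *hMYC-1* ALL without *hlk* replicate 2 or 3 (adjusted p = 0.0813 and 0.064). The class C gene with the highest level, *dnajc7*, which bridges HSP70 and HSP90, had 8.59 to 9.29 in *hMYC-2* ALL, 9.13, 9.17, 8.73 and 8.97 in *hMYC-1* ALL, and 8.38, 9.01 and 8.70 in *hlk* ALL, and its differences of 0.32 ± 0.16 and 0.30 ± 0.18 did not pass the test.

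Between *hMYC-2* ALL and *hMYC-1* ALL, no member passed the threshold by limma (0.419% of all probe sets were called higher and 0.116% lower) or by the shrinkage t test (0.393% and 0.142%). At an unadjusted p under 0.05 there were 8 members (14.8%), against 11.3% of all probe sets, and the groups did not overlap for 2 members, *hsp70.3* and *dnajc3a* (3.7%), against 3.68%. The differences largest in size were those of *hsp70.3*, *hsp90aa1.2* and *dnajb1b*, which encode an HSP70, an HSP90 and an HSP40, and which were singled out after their values had been seen.

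*hsp70.3* had 6.98, 9.03, 9.27, 7.76, 9.27 and 9.33 in *hMYC-2* ALL, 6.56, 6.83, 5.28 and 6.71 in *hMYC-1* ALL, and 6.62, 6.33 and 5.71 in *hlk* ALL. The *hMYC-2* arrays spread over more than 2 on the log2 scale, and the lowest of them was just above the highest *hMYC-1* array. The gene was higher by 2.26 ± 0.48 (4.80-fold, 95% interval 1.21 to 3.31, adjusted p = 0.0723) in *hMYC-2* ALL against *hMYC-1* ALL. The exact two-sided permutation test gave p = 0.00952, the smallest that 6 against 4 arrays allow. Neither p-value measures chance here, since the groups were formed from these same arrays and the gene was singled out. Leaving out each array in turn gave differences of 1.91 to 2.59 (adjusted p = 0.014 to 0.258). The largest difference, with the smallest adjusted p, came without *hMYC-2* replicate 1, the lowest array of its group. Against *hlk* ALL, *hsp70.3* was higher by 2.39 ± 0.53 (5.23-fold, adjusted p = 0.00549) in *hMYC-2* ALL, or 2.06 (adjusted p = 0.0691) with the replicate block, and differed by 0.13 ± 0.57 (adjusted p = 0.917) in *hMYC-1* ALL. By its array name the *hsp70.3* probe set can bind related sequences, so its level may hold RNA of near-identical *hsp70* copies.

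*dnajb1b* had 8.91, 10.98, 10.04, 9.81, 10.03 and 10.86 in *hMYC-2* ALL, 8.21, 8.20, 8.26 and 9.90 in *hMYC-1* ALL, and 9.83, 9.30 and 9.13 in *hlk* ALL. *hMYC-1* replicate 4 stood apart from the other 3 *hMYC-1* arrays and within the range of the *hMYC-2* arrays. The difference was 1.46 ± 0.42 (adjusted p = 0.196) in *hMYC-2* ALL against *hMYC-1* ALL, 0.69 ± 0.46 (adjusted p = 0.31) in *hMYC-2* ALL against *hlk* ALL and -0.78 ± 0.50 (adjusted p = 0.331) in *hMYC-1* ALL against *hlk* ALL. With each array left out in turn, *dnajb1b* differed by 1.29 to 1.88 between the *hMYC* groups (adjusted p = 0.0612 to 0.519). Its paralog *dnajb1a* had an estimate of the other sign in *hMYC-2* ALL against *hMYC-1* ALL, -0.30 ± 0.24 (adjusted p = 0.693). *hsp90aa1.2* had 5.48, 7.37, 6.55, 5.99, 6.86 and 7.63 in *hMYC-2* ALL, 3.82, 5.06, 5.51 and 5.05 in *hMYC-1* ALL, and 6.02, 6.53 and 6.06 in *hlk* ALL. All *hMYC-1* arrays were within background, and *hMYC-2* replicate 1 was too. The mean of this probe set was 0.97 above the background limit in *hMYC-2* ALL and 0.52 above it in *hlk* ALL. In *hMYC-2* ALL against *hMYC-1* ALL the difference was 1.79 (95% interval 0.89 to 2.69, adjusted p = 0.107). Leaving out each array in turn gave 1.44 to 2.02 (adjusted p = 0.0414 to 0.211). The adjusted p of 0.0414 came without *hMYC-2* replicate 1, the lowest array of its group. In *hMYC-1* ALL against *hlk* ALL the difference was -1.34 (-2.41 to -0.28, adjusted p = 0.08). A second *hsp90aa1.2* probe set averaged 6.26 in *hMYC-2* ALL, 5.37 in *hMYC-1* ALL and 5.65 in *hlk* ALL. It gave smaller differences of 0.89 (adjusted p = 0.243) in *hMYC-2* ALL against *hMYC-1* ALL and -0.28 (adjusted p = 0.622) in *hMYC-1* ALL against *hlk* ALL. In all 3 genes the lowest *hMYC-2* arrays were replicates 1 and 4.

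A list of 34 measured genes that respond to stimulation or tissue dissociation, such as *jun* and *fosl2*, differed along the same contrast. The list had 7 genes higher and none lower in *hMYC-2* ALL against *hMYC-1* ALL (0.419% and 0.116% of all probe sets). Its mean level was 9.44, 9.61, 9.37, 9.21, 9.00 and 9.08 in *hMYC-2* ALL, 8.18, 7.06, 6.94 and 8.40 in *hMYC-1* ALL, and between 8.09 and 8.31 in *hlk* ALL. Against *hlk* ALL the median difference of the list was 0.76 in *hMYC-2* ALL and -0.77 in *hMYC-1* ALL. Among *hMYC-2* arrays, replicate 1 had the second highest list mean and the lowest levels of all 3 chaperone genes. *hMYC-1* replicates 1 and 4 had close list means but *dnajb1b* at 8.21 and 9.90. Among *hMYC-1* arrays, replicate 4 had the highest list mean and the highest *dnajb1b* level, and replicate 3 the lowest list mean and the lowest *hsp70.3* level. Other levels in this group did not follow the list mean. *hsp90aa1.2*, within background there, was highest in replicate 3 (5.51) and lowest in replicate 1 (3.82). *hsp70.3* was highest in replicate 2 (6.83), where the list mean was 7.06. The part of the list in the levels of *hsp70.3*, *dnajb1b* and *hsp90aa1.2* was not tested.

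**Figure D4:**
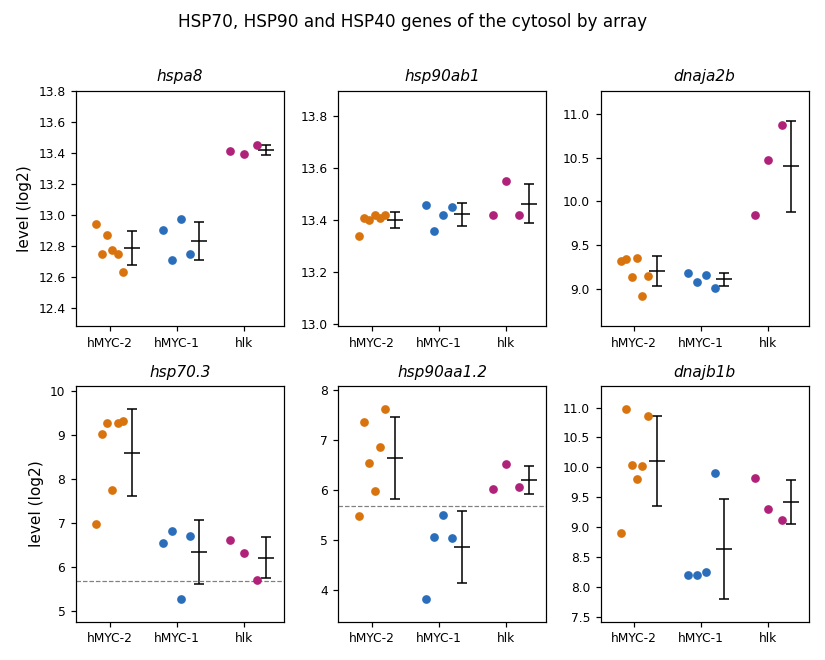
Log2 level on each array for *hspa8*, *hsp90ab1*, *dnaja2b*, *hsp70.3*, *hsp90aa1.2* and *dnajb1b* in *hMYC-2*, *hMYC-1* and *hlk* ALL; each panel has its own axis, points are arrays, the black mark is the group mean ± SD and the dashed line is the background limit of 5.68. *hspa8* and *dnaja2b* set all *hlk* arrays above all *hMYC* arrays, and *hsp70.3* ranges between 6.98 and 9.33 among the *hMYC-2* arrays alone.

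The small heat shock proteins, which hold unfolded proteins without ATP, gave no level to compare. *hspb1*, *hspb6* and *hspb8* were within background on all 13 arrays, the highest value being 4.51 for *hspb1* in *hMYC-2* replicate 1. The other 8 members within background on all arrays were *dnajb6b*, *dnajc24*, *dnajc30b*, *dnajc4*, *hsp90aa1.1*, *hspa1b*, *hspa4l* and *hspa8b*. *hspa4l* was called lower in *hMYC-2* ALL (-0.23, adjusted p = 0.0393, and 0.189 with the replicate block), so 2 of the 4 lower calls in that comparison come from probe sets within background. *hsp90aa1.1*, which lies next to *hsp90aa1.2* and which serves skeletal muscle, was at most 5.37 on any array.

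Genes that work with these chaperones were called in both directions. Of 42 measured partners (60 listed), 6 were higher and 10 lower in *hMYC-2* ALL against *hlk* ALL, 6 were higher and 3 lower in *hMYC-1* ALL against *hlk* ALL, and 0 passed between the *hMYC* groups. Of all probe sets, 11% were higher and 13.7% lower in *hMYC-2* ALL against *hlk* ALL. The shares were 9.13% and 9.63% in *hMYC-1* ALL against *hlk* ALL, and 0.419% and 0.116% in *hMYC-2* ALL against *hMYC-1* ALL. *trap1*, the HSP90 of mitochondria, averaged 5.91 in *hMYC-2* ALL, 5.67 in *hMYC-1* ALL and 7.00 in *hlk* ALL, and fell by 1.09 (adjusted p = 8.02e-05) in *hMYC-2* ALL and by 1.32 (adjusted p = 3.75e-05) in *hMYC-1* ALL, opposite to *hspd1* and *hspe1*. *ppid*, a prolyl isomerase that binds HSP90, fell by 0.94 (adjusted p = 5.55e-05) in *hMYC-2* ALL and by 0.87 (adjusted p = 2.63e-04) in *hMYC-1* ALL. *hsf1*, the heat shock transcription factor, was within background on all *hlk* arrays. It was at least 0.77 higher in *hMYC-2* ALL (adjusted p = 1.99e-04) and at least 0.09 higher in *hMYC-1* ALL (adjusted p = 0.00644). The *hMYC-1* arrays ran between 5.39 and 6.60 with a mean of 5.77, so they reached into background as well. *cdc37l1*, an HSP90 co-chaperone gene, was higher by 0.88 (adjusted p = 0.0033) in *hMYC-2* ALL and by 1.12 (adjusted p = 0.00124) in *hMYC-1* ALL.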

How the data were processed

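The authors deposited log2 levels that justRMA had computed for each probe set (background correction, quantile normalization and summary of probes). The hybridized RNA had been made by in vitro transcription and labelled with biotin. Scanner files were not used here. Without the 115 control probe sets, 15502 remained for testing, with no filter. Of these, 10795 carry 1 symbol, 135 several and 4572 none. All 54 members matched the RefSeq gene table, and the brightest probe set stood for the 7 members with more than 1. Group means were compared in a single limma model (limma 3.58.1, R 4.3.3, lmFit and eBayes) of the 13 arrays, two-sided, and p-values were adjusted by Benjamini-Hochberg across the 15502 probe sets, with calls under 0.05. SE and 95% intervals are limma's moderated ones. The steps were tested on simulated data. None of the 78 array pairs held identical values.

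The members, lists and compartments were chosen with earlier results of these data known. By rule, values on each array are given for up to 10 called members per comparison with no overlap and for the brightest member of each family. Those of *hsp70.3*, *hsp90aa1.2*, *dnajb1b* and of members near the threshold were added after they were seen.

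For arrays of the same replicate number, deviations from the group means correlated at r = 0.23 to 0.32 in *hMYC-2* and *hlk* ALL (3 pairs). In *hMYC-1* and *hlk* ALL r was -0.15 to 0.10, and in *hMYC-2* and *hMYC-1* ALL -0.32 to 0.17. Arrays of different numbers were not compared, so these values cannot show whether a number marks a pairing. No source says what a number stands for. Values with the number as a block are printed for *hMYC-2* against *hlk* ALL where a call changed. The other alternatives were the rewritten shrinkage t, another prior, array weights, a fit of only the compared groups, a minimum on the mean level, 2 normalizations, the mean of a gene's probe sets and leaving out each array.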

Additional observations from a re-analysis of the deposited data

Results flagged for a closer look

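Over 80 groups of *hMYC-2* or *hMYC-1* arrays with a level above background, 3 members had an array far from the rest of its group. Chance alone marks about 1 group in 20. The *hlk* arrays were not part of this screen. *dnajb1b* was 9.90 in *hMYC-1* replicate 4, against 8.20 to 8.26 on the other *hMYC-1* arrays. *hsp90ab1* was 13.34 in *hMYC-2* replicate 1, against 13.40 to 13.42 on the other *hMYC-2* arrays. *hspa12a*, an atypical HSP70 gene, was 5.96 in *hMYC-2* replicate 6, against 4.70 to 5.13 on the others, which are within background.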

How the results depend on the processing

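Main counts of members were 14 higher and 4 lower in *hMYC-2* ALL against *hlk* ALL, 11 higher and 2 lower in *hMYC-1* ALL against *hlk* ALL, and 0 in *hMYC-2* ALL against *hMYC-1* ALL. Of the counts under all alternatives, 123 stayed within 1.5 times and 15 did not. For *hMYC-2* against *hlk*, the shrinkage t gave 3 higher and 1 lower, and the lower count was 2 with the 2 groups alone, the filter on low values, equal housekeeping genes or the replicate block. For *hMYC-1* against *hlk*, the shrinkage t gave 5 higher and the replicate block 7 higher, equal housekeeping genes gave 1 lower, and leaving out both *hlk* replicate 1 and *hMYC-1* replicate 3, chosen after seeing the data, gave 4 lower. For *hMYC-2* against *hMYC-1*, array weights called 2 higher (*hsp70.3* and *hsp90aa1.2*) and the filter called 1 (*hsp70.3*). Leaving out single arrays gave 13 to 14 higher and 2 (without *hMYC-2* replicate 5) to 4 lower for *hMYC-2* against *hlk*, 9 to 11 higher and 2 to 4 (without *hlk* replicate 1) lower for *hMYC-1* against *hlk*, and 0 to 2 higher (2 without *hMYC-2* replicate 1) and 0 lower between the *hMYC* groups. Single members were followed where the main fit called them, and *hsp70.3*, *hsp90aa1.2* and *dnajb1b* also between the *hMYC* groups. Gains by other members are not in these counts, so the counts do not show how often new calls arise. The followed members kept direction and side of the threshold in 693 fits, lost the call in 81, gained it in 5 and reversed in 1. That was *dnajb6a* in *hMYC-1* against *hlk*, at -0.19 (adjusted p = 0.397) with the mean of its probe sets. In *hMYC-1* against *hlk*, the replicate block also ended the *hspd1*, *hspe1*, *dnajb6a* and *dnajb12a* calls (adjusted p = 0.111, 0.0589, 0.0553 and 0.0539). It brought *hsp90aa1.2* past the threshold there (adjusted p = 0.0425). For this pair of groups, arrays of the same number correlated at r = -0.15 to 0.10. Housekeeping scaling moved the median of all probe sets by 0.13 in *hMYC-2* and 0.21 in *hMYC-1* against *hlk*. The cause of these changes was not tested. The number of arrays, 3 in *hlk* ALL, limits the precision.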
